A study of Mus musculus with 2 samples.

Results

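The members examined here are the 4 genes of AMPA receptor subunits, Gria1, Gria2, Gria3 and Gria4, and the genes of 2 cornichons, Cnih2 and Cnih3, which are auxiliary proteins of that receptor. They were chosen by gene symbol, whatever their level, and make up 6 of the 55536 genes and 32 of the 141767 transcripts quantified. The tissue was the left cerebral cortex of 2 male B6CASTF1/J mice, F1 hybrids of the B6 and CAST strains, at an age of 36 days. The labels name no engineered allele and no treatment. Each mouse gave 1 library of total RNA (300 ng, ribosomal RNA reduced, strand kept, ERCC spike-in RNAs added). The mice, called replicate 1 and replicate 2, form 1 group, so there is no contrast between conditions. The labels number them as separate animals yet give both the same donor identifier. All values sum over the cell types of the tissue and over both parental alleles. Since no exact permutation p with 2 mice can fall under 0.5, none was computed, and differences are set against the spread between the mice.

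AMPA receptors are glutamate-gated channels that carry most fast excitatory transmission in the brain. Each channel is an assembly of 4 subunits, and the subunits present set its conductance, kinetics and calcium permeability. GluA2, the product of Gria2, makes channels nearly impermeable to calcium because its RNA is edited in the pore region. Each subunit gene has a pair of mutually exclusive exons, flip and flop, that encode part of the ligand-binding domain and change how fast the channel desensitizes and closes. Cornichons were first known as carriers of cargo out of the endoplasmic reticulum. The products of Cnih2 and Cnih3 bind AMPA receptors, promote their export and slow their gating.

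The flip and flop exons are printed because the transcript shares below turn on them. In all 4 genes both exons are 115 bases long and lie next to each other, flop upstream of flip. They are given 5′ to 3′ on the transcribed strand (GRCm38, the build also called mm10, GENCODE M21). Capitals mark bases that differ between the 2 exons of the same gene.
Gria1 flip exon: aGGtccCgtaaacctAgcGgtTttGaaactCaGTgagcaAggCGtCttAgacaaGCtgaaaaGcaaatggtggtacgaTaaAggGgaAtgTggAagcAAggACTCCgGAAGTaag
Gria1 flop exon: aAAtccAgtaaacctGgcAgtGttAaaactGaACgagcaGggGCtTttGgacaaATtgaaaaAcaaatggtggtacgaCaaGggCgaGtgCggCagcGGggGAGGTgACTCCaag
Gria2 flip exon: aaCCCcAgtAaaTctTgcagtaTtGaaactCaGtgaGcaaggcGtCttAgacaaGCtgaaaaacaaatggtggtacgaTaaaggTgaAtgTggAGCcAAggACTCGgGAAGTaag
Gria2 flop exon: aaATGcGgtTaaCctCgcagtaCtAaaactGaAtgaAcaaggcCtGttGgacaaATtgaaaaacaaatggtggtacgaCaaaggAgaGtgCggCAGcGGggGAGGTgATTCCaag
Gria3 flip exon: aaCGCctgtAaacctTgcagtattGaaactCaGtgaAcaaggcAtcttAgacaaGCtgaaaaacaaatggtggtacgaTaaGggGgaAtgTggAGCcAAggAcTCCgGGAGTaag
Gria3 flop exon: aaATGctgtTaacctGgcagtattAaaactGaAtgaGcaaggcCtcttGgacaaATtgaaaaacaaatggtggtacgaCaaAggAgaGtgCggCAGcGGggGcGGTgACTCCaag
Gria4 flip exon: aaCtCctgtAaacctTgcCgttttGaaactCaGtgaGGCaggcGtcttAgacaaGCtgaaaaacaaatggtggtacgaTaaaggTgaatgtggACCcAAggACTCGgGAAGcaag
Gria4 flop exon: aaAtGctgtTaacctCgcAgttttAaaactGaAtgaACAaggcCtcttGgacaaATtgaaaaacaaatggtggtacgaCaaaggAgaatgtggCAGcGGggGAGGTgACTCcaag
The exons of Gria1 lie at chr11:57310608-57310722 (flip) and chr11:57309769-57309883 (flop) on the plus strand. Those of Gria2 lie at chr3:80690404-80690518 and chr3:80691320-80691434 on the minus strand. Those of Gria3 lie at chrX:41669501-41669615 and chrX:41654810-41654924 on the plus strand. Those of Gria4 lie at chr9:4427030-4427144 and chr9:4432773-4432887 on the minus strand. Between flip and flop of the same gene, 36 bases differed in Gria1, 36 in Gria2, 32 in Gria3 and 31 in Gria4. Different genes were closer for the same exon: the flop exons of Gria3 and Gria4 differed at 6 bases and the flip exons of Gria2 and Gria3 at 9. No such pair of genes differed at more than 14 bases in either exon. A read within 1 of these exons therefore separates flip from flop more easily than it separates the genes.

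The libraries held 29915463 (replicate 1) and 27988085 (replicate 2) expected counts, which are estimated reads per gene. Their counts differed over the 16481 genes averaging 20 counts or more by more than sampling noise (chi-square 12.6 per degree of freedom), so they are not 1 library deposited again. The defining transcripts of cortical excitatory neurons were present. Slc17a7, the vesicular glutamate transporter of these neurons, was at 599 and 563 TPM, and all 4 excitatory markers passed 1 TPM in both mice. TPM is a level per unit of transcript length, scaled to the same sum in each library. Of the cerebellar markers, Gabra6 was at 0.07 and 0.02 TPM and Barhl1 was at 0 in both mice. The 2 oligodendrocyte markers summed to 484 TPM in replicate 1 and 369 in replicate 2, and the 3 inhibitory neuron markers to 239 and 272. In a bulk sample, fewer cells of a type and less RNA per cell cannot be told apart.

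Every member was expressed. Gria2 was at 221 TPM in replicate 1 and 249 in replicate 2, a mean of 235 ± 19.8 (SD, n = 2). It was the highest of the 6 and ranked 242 among 21951 protein-coding genes. Its expected counts were 20078 and 21150. Gria2 lies at chr3:80681450-80802835 on the minus strand (ENSMUSG00000033981.14). Its level was separated from that of the next member in both mice.

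Gria3, Gria1 and Cnih2 formed a middle tier. Cnih2 (chr19:5092868-5098521, minus strand, ENSMUSG00000024873.7) was at 109 and 115 TPM, mean 112 ± 4.36, with 2660 and 2620 expected counts from its short transcript. Gria3 (chrX:41400854-41678601, plus strand, ENSMUSG00000001986.16) was at 97.9 and 105 TPM, mean 101 ± 4.98. Gria1 (chr11:57011387-57330244, plus strand, ENSMUSG00000020524.16), whose product GluA1 is phosphorylated during synaptic plasticity, was at 96.2 and 102 TPM, mean 99.3 ± 4.39. The values of Gria1 and Gria3 overlapped between the mice, and the lower Cnih2 value stood within 4 TPM of the higher Gria3 value. Expected counts were 10058 and 10164 for Gria1 and 8638 and 8173 for Gria3.

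Gria4 and Cnih3 were lowest. Gria4 (chr9:4417896-4796234, minus strand, ENSMUSG00000025892.16), whose product gives fast-gating receptors, was at 45.0 and 45.6 TPM, mean 45.3 ± 0.41, with 3262 and 3073 expected counts. Cnih3 (chr1:181352628-181460641, plus strand, ENSMUSG00000026514.14) was at 33.3 and 36.0 TPM, mean 34.6 ± 1.92, with 1502 and 1448 expected counts. The groups of values of these 2 genes did not overlap each other or those of any other member. All 6 passed 1 TPM in both mice, as did 58.7% of protein-coding genes. Even Cnih3 was above the median of the 12890 genes that passed (16.0 TPM).

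**Figure D1:**
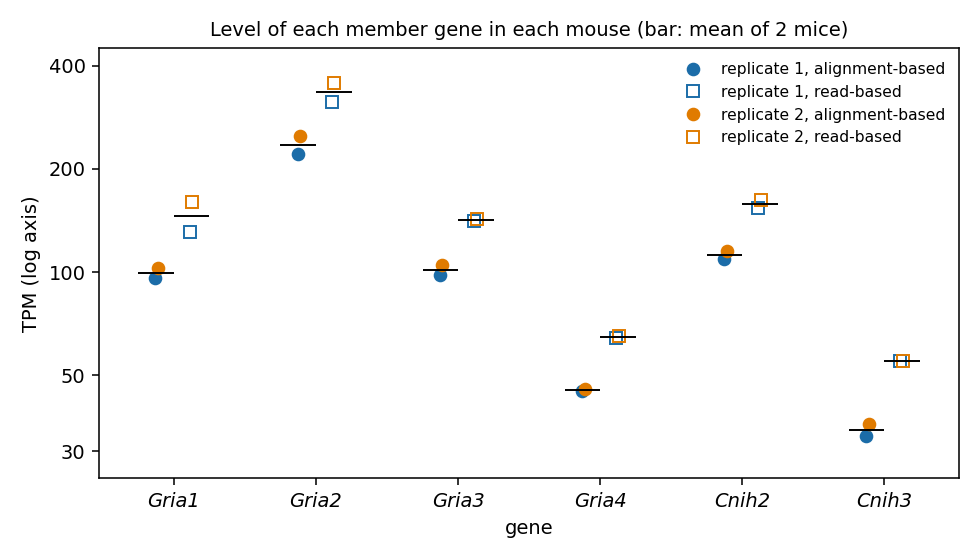
TPM of each member gene on a log axis, with 1 point per mouse and table and a bar at the mean of the 2 mice. Filled circles are the alignment-based table, in which Gria2 is highest at 221 and 249 and Cnih3 lowest at 33.3 and 36.0, and open squares are the read-based table, where Gria2 is again highest and Cnih3 lowest.

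A separate table, quantified directly from the reads, gave higher levels for all 6 members. There Gria2 was at 314 and 356 TPM, Cnih2 at 154 and 162, Gria1 at 130 and 160 and Gria3 at 141 and 143. Gria4 was at 64.1 and 65.3 and Cnih3 at 55.0 and 55.1. The ratio of the tables' means ran from 1.40 for Gria3 to 1.59 for Cnih3. It was 1.55 for the median expressed protein-coding gene, so the members moved with the other genes. Protein-coding genes of the nucleus took 44.9% and 45.5% of the TPM in the alignment-based table and 72.7% and 74.7% in the read-based one. The order of Gria1 and Gria3 was not stable there: Gria3 was higher in replicate 1 and Gria1 in replicate 2. Without the short processed transcript Gria1-205, Gria1 was at 143 TPM in replicate 2, level with Gria3.

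The members differed little between the mice. On TMM-scaled expected counts the log2 ratio of replicate 2 over replicate 1 was largest for Gria2, at 0.11 (95% counting interval 0.08 to 0.14). It was 0.05 for Gria1 (0.01 to 0.09), -0.05 for Gria3 (-0.09 to -0.0014) and -0.05 for Gria4 (-0.12 to 0.02). The cornichons were at 0.01 for Cnih2 (-0.07 to 0.09) and -0.02 for Cnih3 (-0.12 to 0.09). None of the 6 passed a log2 ratio of 1 in size, which 1.74% of 16481 genes did. None passed the 95th percentile of the absolute ratio among genes of like abundance (0.26 for Gria1, Gria2 and Gria3), which 5.09% of genes did. The directions depended on the scaling. The spike-in RNAs as scale added 0.40 to the log2 ratio of every gene, so that all 6 members were higher in replicate 2, with Gria3 at 0.35, Gria4 at 0.35 and Cnih3 at 0.38. Library totals as scale also turned these 3 genes, to 0.015, 0.0090 and 0.04. Cnih2 turned to -0.02 with DESeq2 size factors, -0.0021 without the filter on low counts and -0.03 with read-based counts. Gria1 and Gria2 stayed above 0 in all 5 of these alternatives. The intervals cover counting error only.

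Among the subunit genes, the RNA of Gria2 took close to the sum of the other 3. These are levels of whole genes, with retained-intron transcripts included, and do not give the make-up of the receptors. Gria2 held 48.0% and 49.6% of the summed TPM of Gria1 to Gria4, mean 48.8% ± 1.12 (SD, n = 2). Gria3 held 21.3% and 20.9%, Gria1 20.9% and 20.4%, and Gria4 9.79% and 9.09%. In the read-based table the means were 48.8% for Gria2, 20.7% for Gria3, 21.1% for Gria1 and 9.45% for Gria4. These means differed by less than 1 percentage point between the tables. Within replicate 2 the tables differed by 1.67 points for Gria1 and 1.21 for Gria3.

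Of the 7 pairs of genes within a family, 6 differed by more than the spread between the mice at their abundance. That spread is of the same gene between the mice, so it does not cover errors that differ between genes, such as in length. Gria2 exceeded Gria3 by 1.20 ± 0.05 and Gria4 by 2.35 ± 0.11 on the log2(TPM + 1) scale (SD, n = 2). Gria1 exceeded Gria4 by 1.11 ± 0.05 and Gria3 exceeded it by 1.14 ± 0.06. Gria3 and Gria1 were the pair that could not be separated, with a difference of 0.02 and 0.03 in the 2 mice against a spread of 0.27. That difference turned to -0.03 in the read-based table and to -0.27 on expected counts, which are not divided by length. Cnih2 exceeded Cnih3 by 1.67 ± 0.02, a 3.17-fold difference in level per length. On expected counts the difference was 0.84, since the annotated Cnih3 transcript is longer. Cnih2 held 76.6% and 76.2% of the summed TPM of the 2 cornichon genes.

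The balance was different when only protein-coding transcripts that hold the flip or the flop exon were counted, called full-length below. They include Gria1-204, with 838 codons against 907 in Gria1-201, at 0.18% and 0.57% of Gria1. Counted so, Gria2 was at 163 and 157 TPM, Gria1 at 94.6 and 102, Gria3 at 62.4 and 61.2 and Gria4 at 21.3 and 21.3. Gria1 then exceeded Gria3 in both mice, and Gria3 over Gria1 stood at -0.66 on the log2(TPM + 1) scale. Their shares of the sum were 46.8% ± 1.23 for Gria2, 28.8% ± 1.54 for Gria1, 18.1% ± 0.29 for Gria3 and 6.23% ± 0.01 for Gria4. In the read-based table Gria1 also stood above Gria3, but by less, at 25.3% and 27.6% against 22.6% and 21.5%. There Gria1 was at 130 and 143 TPM and Gria3 at 116 and 111. This count leaves out Gria3-206, which held 15.9% and 12.8% of Gria3 in the alignment-based table but 0.72% and under 0.01% in the read-based one. The difference was not set against the spread between the mice used for whole genes. The difference of Gria1 over Gria4 was 2.16 on the same log2 scale, against 1.11 for whole genes. This count was chosen after the data were seen.

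**Figure D2:**
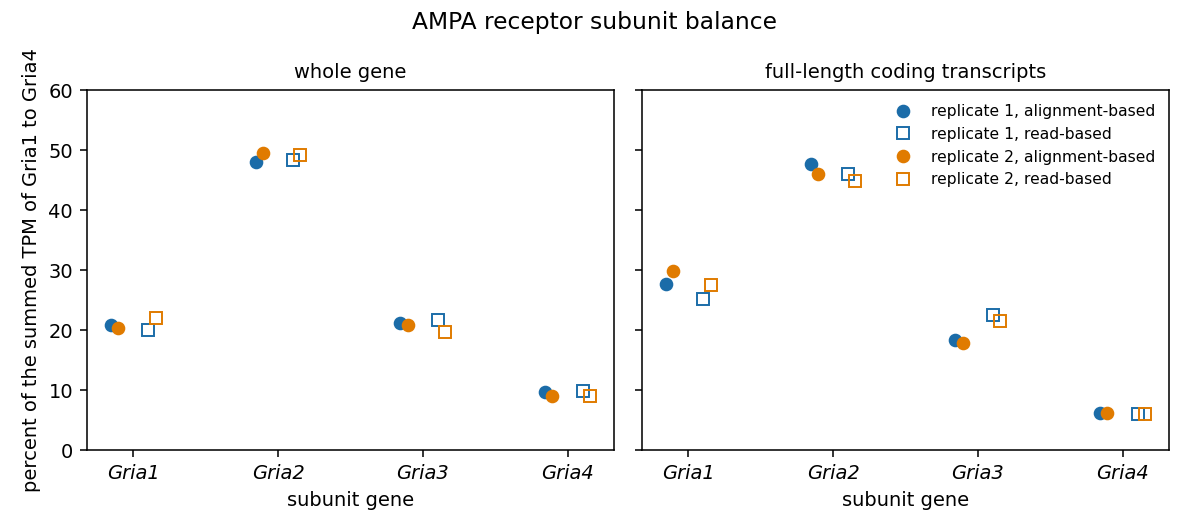
Percent of the summed TPM of Gria1 to Gria4 on each subunit gene, for whole genes (left) and for protein-coding transcripts that hold the flip or the flop exon (right), with 1 point per mouse and table. Gria1 and Gria3 lie together at 20.4% to 21.3% in the alignment-based table on the left, and apart at 28.8% and 18.1% on average on the right. The read-based means on the right are closer, at 26.4% and 22.1%.

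The transcripts behind these totals were described by their share of the gene's TPM. Of the 32 annotated transcripts, 19 are protein-coding, 9 keep an intron, 3 are marked as targets of nonsense-mediated decay and 1 is a processed transcript. A share of at least 5% in either mouse and either table was reached by 22 of them. The other 10 had alignment-based shares of at most 3.62%. The leading transcript was the same in both mice and both tables for 6 of 6 members. Over 11676 expressed protein-coding genes with at least 2 transcripts, the tables named the same leader in 76%.

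**Figure D3:**
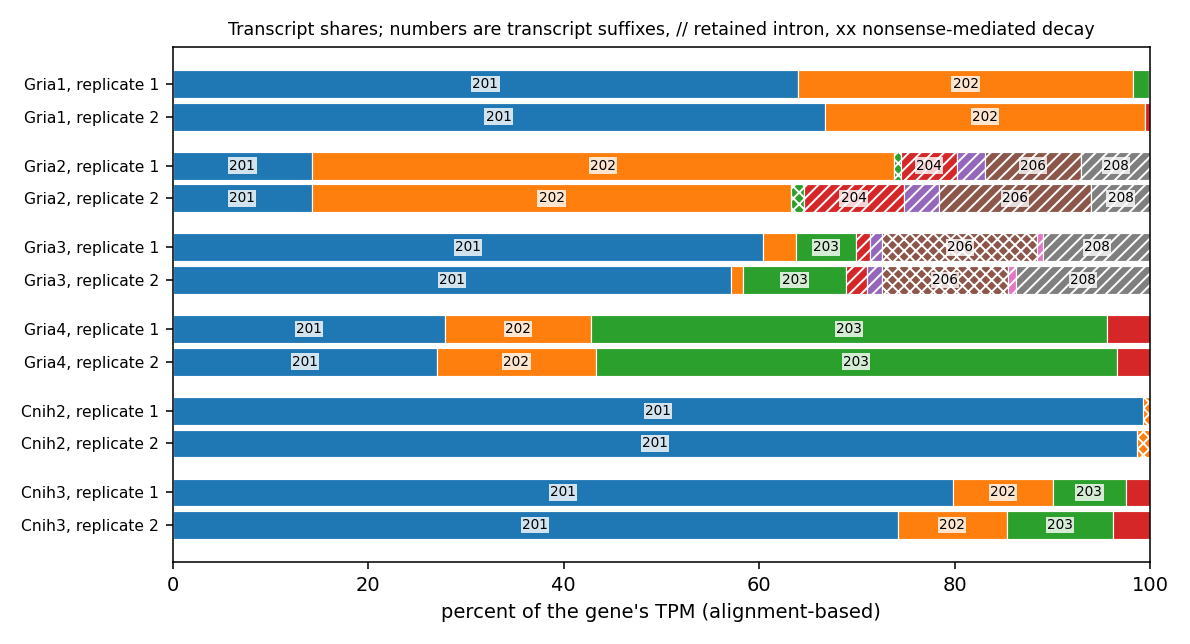
Percent of each gene's TPM on each annotated transcript in the alignment-based table, with 1 bar per gene and mouse. Transcripts are numbered by their suffix, slashes mark retained introns and crosses mark targets of nonsense-mediated decay. The hatched part of the Gria2 bar is wider in replicate 2, and Gria4-203 is the widest part of both Gria4 bars.

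Gria1 was almost wholly a choice between 2 full-length transcripts. Gria1-201, the flip form, held 64.0% and 66.7% (61.6 and 68.3 TPM), with posterior counts of 6557 ± 200 and 6829 ± 189, where the error is the quantifier's posterior SD within a library. Gria1-202, the flop form, held 34.2% and 32.8% (32.9 and 33.5 TPM). The transcripts share 5284 bases, and Gria1-202 has 115 bases of its own, all of them the flop exon. Gria1-201 has 262 of its own, which are the flip exon and, nearly all of the rest, a longer 5′ end. Reads of that 5′ end can count towards flip whichever exon their transcript held. Flip made up 65.2% and 67.2% of flip plus flop in Gria1, and 62.2% and 62.4% in the read-based table. The processed transcript Gria1-205, which holds neither exon, was at 0 in the alignment-based table. In the read-based table it took 0.30% in replicate 1 and 10.7% in replicate 2, on 1.16 and 48.9 estimated counts.

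Gria4 gave the opposite order of the exons. Flip made up 31.7% and 34.7% of flip plus flop in Gria4, and 27.0% and 33.9% in the read-based table. The flip form Gria4-202 held 15.0% and 16.2% of the gene's TPM. The flop form Gria4-201 held 27.9% and 27.1%. A further flop form with another first exon, Gria4-204, held 4.40% and 3.44%. In the read-based table Gria4-204 took 18.5% and 10.2%, Gria4-201 17.0% and 21.4% and Gria4-202 13.1% and 16.1%. The division between the flop forms thus differed by table, while their sum stayed above flip in every mouse and table. Gria4-204 is annotated only with flop, so reads of its own first exon count towards flop whichever exon their transcript held. Gria4-201 alone also stood above Gria4-202 in every mouse and table, by less in the read-based one. The pair Gria4-201 and Gria4-202 shares 5234 bases. Gria4-202 has 118 bases of its own and Gria4-201 has 207, and the exon makes up 115 of each. The rest in Gria4-201 is a longer 5′ end, which Gria4-203 also has. Reads of that end can count towards flop whichever exon their transcript held.

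**Figure D4:**
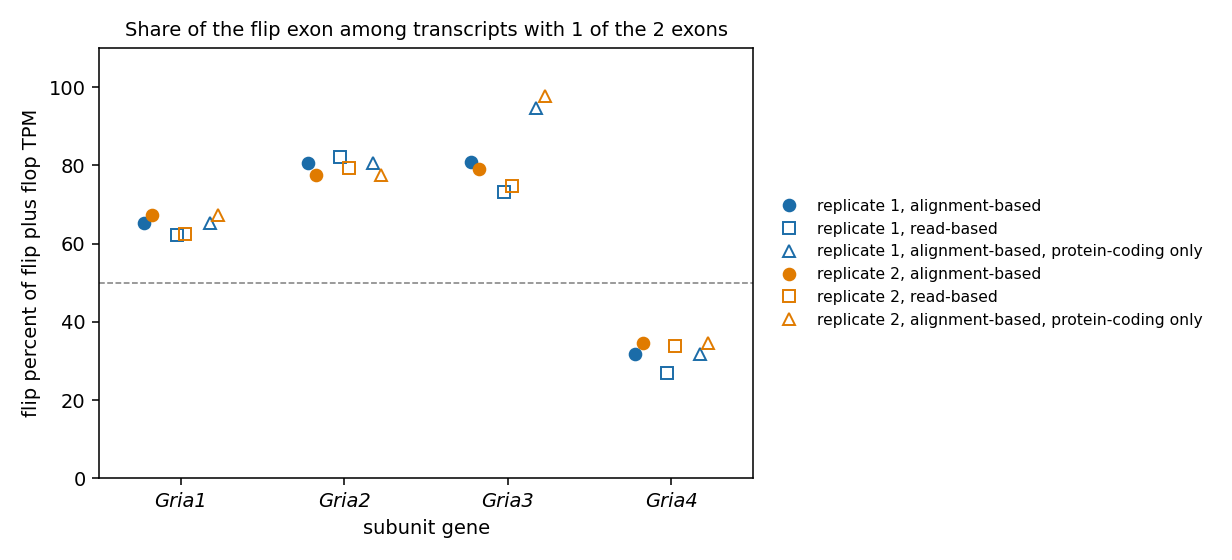
Percent of flip in the TPM of transcripts that hold either the flip or the flop exon, for each subunit gene, mouse and table, with triangles for protein-coding transcripts only and a dashed line at 50%. All points of Gria1, Gria2 and Gria3 lie above the line and all points of Gria4 below it.

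In Gria2 the annotation ties the exon to the length of the 3′ end. Gria2-202, the flip form, has a 3′ untranslated region of 923 bases, and Gria2-201, the flop form, one of 7268 bases. Of the 6460 bases private to Gria2-201, 115 are the flop exon, so reads of the long 3′ end count towards flop whichever exon their transcript held. Gria2-202 was at 131 and 122 TPM and Gria2-201 at 31.6 and 35.4. Their posterior counts were 10077 ± 145 and 8786 ± 146 for Gria2-202 and 6384 ± 65.2 and 6689 ± 65.3 for Gria2-201. Flip made up 80.6% and 77.5% of flip plus flop by TPM in Gria2, and 82.1% and 79.3% in the read-based table. Gria2-201 kept a share of 14.3% and 14.2% of the gene in the 2 mice.

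Gria3 had a like tie in the other direction. Its flip form Gria3-201 has a 3′ untranslated region of 2264 bases. The flop form Gria3-202 has one of 248 bases, and the flop form Gria3-209 has none annotated. The transcript with the long end and the flop exon, Gria3-206, also holds flip and is marked for nonsense-mediated decay. Gria3-201 held 60.4% and 57.1% (59.1 and 59.9 TPM), and 69.1% and 69.9% in the read-based table. Gria3-206 held 15.9% and 12.8%, on posterior counts of 1584 ± 209 and 1226 ± 169, but 0.72% and under 0.01% in the read-based table. Gria3-202 went the other way, from 3.38% and 1.28% to 12.8% and 7.97%. Gria3-208, a retained-intron transcript with the flop exon, held 10.9% and 13.8%, and 11.8% and 15.5% in the read-based table.

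Flip made up 80.9% and 79.2% of flip plus flop in Gria3. Among protein-coding transcripts alone it made up 94.7% and 97.8%, and in the read-based table, over all types, 73.2% and 74.8%. Flip stood above flop in Gria3 in all these counts, at 73.2% to 97.8%. All of them use the same annotation, in which only the flip form Gria3-201 has the long end among protein-coding transcripts. Reads of that end can count towards flip whichever exon their transcript held, so these counts do not check each other. The flop side of the protein-coding count was Gria3-202, on 194 and 73.4 expected counts. Use of the exon apart from the long end was not tested. The short Gria3-203, with 322 bases and 2 exons, held 6.09% and 10.5% of the TPM on 0.30% and 0.55% of the gene's expected counts. It was at 0 in the read-based table.

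The leading transcript of Gria4 by TPM does not encode the channel part of the subunit. Gria4-203 ends after 433 codons, against 902 in Gria4-201, Gria4-202 and Gria4-204, and stops upstream of both the flip and the flop exon. It holds the exons of the extracellular amino-terminal part and then a last exon of its own, at chr9:4478263-4478852 on the minus strand. The last exon adds 30 coding bases, printed here because they end the reading frame of the short form, and 557 untranslated bases.
Gria4-203 coding end: cctctgatgaagaatcctattttaagaaat
These bases lie at chr9:4478823-4478852. Gria4-203 was at 23.8 and 24.3 TPM, with posterior counts of 1049 ± 28.7 and 1001 ± 27.3. It held 52.8% and 53.3% of the TPM of Gria4, and 51.4% and 52.3% in the read-based table. By expected counts, which favour long transcripts, it held 32.1% and 32.6%, below the 40.4% and 39.5% of Gria4-201. The transcripts with the full reading frame summed to 21.3 and 21.3 TPM. Among protein-coding transcripts, neither Gria1, Gria2 nor Gria3 had a second coding end above 1% of their expected counts, though by TPM the short Gria3-203 took 8.71% and 15.2% of the protein-coding part of Gria3.

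The cornichon genes differed in how many transcripts they used. Cnih2-201 held 99.3% and 98.6% of Cnih2 (108 and 113 TPM). Its 160 codons equal the number in Cnih3-201. Cnih3-201 held 79.8% and 74.2% of Cnih3 (26.6 and 26.7 TPM). Cnih3-202 uses a later splice donor of an inner exon, and so adds 57 bases, or 19 codons, to the reading frame. They lie at chr1:181409677-181409733 on the plus strand and are printed because they make the second protein form of Cnih3.
Cnih3-202 added coding bases: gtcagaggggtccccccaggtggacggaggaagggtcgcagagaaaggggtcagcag
Cnih3-202 held 10.2% and 11.1% of Cnih3 in the alignment-based table, on posterior counts of 131 ± 49.7 and 144 ± 42.5. It held 27.4% and 27.8% in the read-based table, on 386 and 367 estimated counts. The tables differed more than the mice did for this transcript. Cnih3-202 also has a shorter annotated 3′ untranslated region than Cnih3-201, 657 against 1389 bases. Reads outside the added bases therefore also set its share. The short models Cnih3-203 (602 bases) and Cnih3-204 (564 bases) held 7.41% and 10.9%, and 2.53% and 3.84%, on at most 2.50% of the gene's expected counts each.

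Only Gria2 and Gria3 among the members have annotated retained-intron transcripts, 9 in all. Their summed share of Gria2 was 25.6% in replicate 1 and 35.5% in replicate 2, and 22.0% and 31.1% in the read-based table. Gria2-206 was at 21.7 and 38.5 TPM, with posterior counts of 1432 ± 67.6 and 2380 ± 86.3. Gria2-204 was at 12.7 and 25.5 TPM, with posterior counts of 1163 ± 32.1 and 2204 ± 38.9. Both were higher in replicate 2. The posterior SD covers the assignment of reads within a library and not the spread between animals. Gria2-208 was at 7.08% and 6.13% of the gene's TPM.

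The TPM of Gria2 as a whole was 12.7% higher in replicate 2. Its retained-intron transcripts summed to 56.4 TPM in replicate 1 and 88.2 in replicate 2, while its 2 full-length transcripts summed to 163 and 157. The share of the leading Gria2-202 was lower in replicate 2 by 10.4 points. Over 7706 protein-coding genes with at least 2 transcripts and a mean TPM of at least 10, the share of the leader differed by a median of 3.63 points between the mice, with a 95th percentile of 16.6.

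The direction of the difference was common among other genes, though the median gene differed by less than Gria2. Of 5311 protein-coding genes with a retained-intron transcript and a mean TPM of at least 10, 75.8% had a higher retained-intron share in replicate 2. The median share was 9.48% in replicate 1 and 11.9% in replicate 2, and the median difference was 1.78 points. A difference of over 5 points upward was seen in 22.8% of these genes and in 1 of the 2 members, Gria2, at 9.93 points. Gria3 went from 14.3% to 18.3%, a difference of 4.07 points. Both lay inside the 5th to 95th percentile of these genes, -4.57 to 11.0 points. Read-based shares were higher in replicate 2 for 71.6% of the genes, with a median difference of 1.47 points. By those shares both members passed 5 points upward, Gria2 at 9.08 and Gria3 at 5.42, as did 1169 of the 5311 genes. The part that the libraries' general difference has in Gria2 was not tested.

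**Figure D5:**
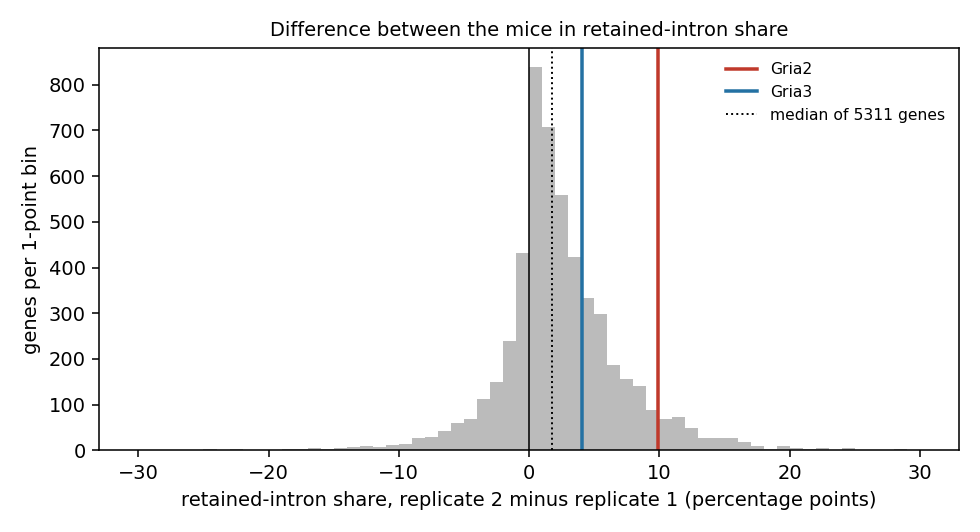
Number of genes by the difference in retained-intron share between the mice (replicate 2 minus replicate 1, percentage points, alignment-based table) for 5311 protein-coding genes, 4 of which lie outside the axis. Lines mark Gria2 at 9.93 and Gria3 at 4.07 points and the median of all genes at 1.78.

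The proteins that assemble, carry and anchor AMPA receptors were followed through a list of 34 partner genes. All 34 passed 1 TPM in both mice, against the 58.7% of protein-coding genes given above. The median of the list was 39.4 TPM, beside 16.0 over the 12890 protein-coding genes that passed 1 TPM and 3.73 over all protein-coding genes. The list was chosen with earlier results of these data known, so these comparisons are description only. Among the secreted and membrane partners, Olfm1, an olfactomedin of the receptor complex, was at 672 and 669 TPM. Nptxr and Nptx1, neuronal pentraxins that gather receptors at synapses, were at 332 and 353 and at 119 and 106 TPM. Nsf, an ATPase of membrane fusion that binds GluA2, was at 408 and 390 TPM.

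Among the scaffolds, Dlg4, which encodes PSD-95, was at 383 and 383 TPM and its relative Dlg1 at 83.5 and 83.7. Cacng8 and Cacng7, transmembrane regulatory proteins of the receptor (TARPs), were at 72.3 and 81.9 and at 77.0 and 80.4 TPM. Frrs1l, needed for early assembly of the receptor, was at 92.9 and 85.4 TPM. Abhd12, a lipid hydrolase, was at 133 and 131 TPM. Olfm1, Nsf, Dlg4 and Nptxr thus stood above Gria2 in both mice, and the other 30 stood below it.

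Of the 34 genes, 1 differed between the mice by more than the 95th percentile of its abundance bin, beside 5.09% of all genes, and 0 passed a log2 ratio of 1. That gene was Cacng2, the stargazin gene, at 28.0 and 23.9 TPM with a log2 ratio of -0.29. The lowest of the list was Shisa8, an auxiliary protein of the Shisa family, at 1.39 and 2.06 TPM. Cacng2 and Shisa8 were named after their values were seen.

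Set beside the other ionotropic glutamate receptors, the AMPA subunits summed to a level close to that of the NMDA subunits. Gria1 to Gria4 summed to 460 and 502 TPM. The 7 NMDA receptor genes summed to 479 and 507 TPM, and AMPA over NMDA was 0.96 and 0.99. The 5 kainate receptor genes summed to 163 and 182 TPM, so the AMPA sum was 2.83 and 2.75 times theirs. The sums of AMPA and NMDA subunits overlapped between the mice, and those of kainate subunits stood apart from both. All 4 AMPA genes were at 45.0 TPM or more, while the lowest NMDA gene averaged 0.065.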

How the data were processed

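Total RNA libraries of the left cerebral cortex of 2 mice were analysed, 1 library each. For each, the authors deposited an alignment-based gene table and transcript table and a read-based transcript table, with mm10 and GENCODE M21 named as build and annotation in the deposited listing. The aligner and quantifiers were not given in the sources used here. Of the gene identifiers, 55450 of 55536 had a row in the annotation used here for names and types. The values are deposited expected counts (not normalized; the read-based table gives estimated counts), deposited TPM, and deposited percent of a gene's TPM per transcript, per the file headers. Posterior counts and their SD are also the authors' deposited counts of the quantifier. These tools split reads shared by transcripts or related genes, which affects flip and flop shares. The label of each exon as flip or flop was read by a script from the known serine or asparagine codon that separates them. Total expected counts of 29915463 and 27988085 set the precision, and 0.45% and 0.38% of them fell outside annotated genes. Read-based TPM was summed by gene. The mm10 build is of the B6 strain, and its effect on reads from CAST alleles was not tested.

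The members and lists were chosen with earlier results of these data known. Named were the 6 members, their transcripts at a share of at least 5%, and from the partner list the 10 genes with the highest TPM and any under 1 TPM in either mouse, of which there was none. No gene was named for a like pattern, since 2 samples of 1 group give none. Log2 ratios between genes used a pseudocount of 1. Ratios between the mice used TMM scaling in edgeR 4.0.16 (R 4.3.3) with a prior count of 0.5 and exact binomial 95% intervals, and 20 bins of abundance gave the 95th percentiles. Alternatives were the read-based table, expected counts, TPM rescaled to nuclear protein-coding genes, a pseudocount of 0.1, TPM thresholds of 0.1 and 5, scaling by spike-in totals, by library totals or by DESeq2 1.42.0 size factors, no filter, and leaving out each mouse. The ratio script was tested on simulated data. Python 3.11.15 with pandas 2.3.3, numpy 2.4.6, scipy 1.17.1 and Biopython 1.88 did the rest. Sequences came from the GENCODE M21 transcripts.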

Additional observations from a re-analysis of the deposited data

How the results depend on the processing

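Of 203 alternative values of 41 results, 130 stayed within the spread between the mice, the counting interval (for ratios between the mice) or 1.5 times (for the count of partner genes), and the others moved further or reversed. Of the log2 ratios, 3 of 48 alternatives for pairs of genes and 9 of 30 for the mice changed sign. The values without either mouse are all among the 130. They are the per-mouse values already given, which with 2 mice always lie within 1 SD of the mean and so say nothing of stability. The 130 therefore does not measure how many results were stable to the processing. No paired analysis was possible because the design has 1 group. With the read-based table the Cnih2 share of the cornichon TPM was 74.1%, the retained-intron share of Gria3 19.3%, the flip share 62.3% for Gria1, 74.0% for Gria3 and 30.4% for Gria4, the Gria4-203 share 51.9% and AMPA over kainate 2.65. By expected counts, which are not divided by length, the Cnih2 share was 64.2%, the retained-intron share 21.5% for Gria2 and 12.7% for Gria3, the flip share 59.1% for Gria2 and 85.5% for Gria3, and the Gria4-203 share 32.3%. With protein-coding transcripts alone the Gria3 flip share was 96.3%. With full-length transcripts alone, an alternative added after the data were seen, the Gria2 share was 46.8%. The log2 ratio of Gria3 over Gria1 (0.03) turned to -0.027 in the read-based table, -0.27 by expected counts and -0.66 for full-length transcripts. The log2 ratio of Gria3 between the mice (-0.05) turned to 0.015 with library totals and 0.35 with spike-in totals, and the other 7 sign changes between the mice were in Gria4, Cnih2 and Cnih3, whose counting intervals include 0. Apart from what the setting itself changes (length, or the transcripts counted), the cause was not tested. Depth limits the less abundant transcripts, such as Gria3-202, with posterior counts of 161 ± 76.3 and 90.2 ± 54.6.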
